A study of Mus musculus with 2 samples.

Results

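The CCN proteins and the core of the YAP-TEAD system were read as 10 genes on arrays of mouse superficial zone cells, the flattened chondrocytes at the surface of articular cartilage that secrete lubricin. The genes were 5 of the CCN family (Ccn1 to Ccn5), the YAP-TEAD target genes Ankrd1 and Amotl2, the coactivator gene Yap1, and the TEAD factor genes Tead1 and Tead2. They were chosen by name: every probe set whose platform gene symbol was one of these was taken, which gave 18 of 45101 probe sets and 10 of 18193 named genes. The choice was made with earlier results of these data known. Current symbols are used throughout; Ccn1 is the former Cyr61, Ccn2 Ctgf, Ccn3 Nov, Ccn4 Wisp1 and Ccn5 Wisp2.

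Cells of ICR mice, taken 4 days after birth from joints of the femur and tibia, were grown in DMEM with 10% serum. They were then kept for 24 h with 10 μM retinoic acid, the active metabolite of vitamin A (n = 1), or without it (control, n = 1), and the RNA of each culture was read on 1 Affymetrix Mouse Genome 430 2.0 array. The labels name no transgene, Cre line or clone, and give neither the number of animals pooled nor whether both cultures came from the same preparation. With 1 array per group there is no replicate check and no p-value, every ratio describes these 2 arrays, and the number of arrays limits the precision.

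The value is the MAS5 signal, a linear intensity per probe set, and ratios are retinoic acid over control. Each array's own median, 29.7 with retinoic acid and 26.5 in control, served as a floor below which a signal was not counted as measured, and a gene was represented by its brightest probe set. Probe sets that read the same gene differed in log2 ratio with a pooled SD of 0.30 (4993 genes). This is the only repeat measurement here, and it holds no variation between cultures. A log2 ratio larger or smaller than this SD therefore does not tell a change from none. The 8 chondrocyte markers listed (Col2a1, Acan, Sox9, Col9a1, Col11a1, Matn1, Hapln1 and Comp) were above the floor on both arrays. So was Prg4, which encodes lubricin, at 1148 with retinoic acid and 1920 in control. Some markers of other cell types, such as Acta2 and Tnmd, were above it on both arrays too, so passing the floor does not by itself identify the cells. The summed signal of the chondrocyte markers was 30188 with retinoic acid against 54801 in control, and 4 of the 8 were past 2-fold in the lower direction (against 4.34% of all measured genes), among them Acan (157 against 5066) and Sox9 (94.8 against 1024). Col2a1 was 7366 against 9538. In RNA of whole cultures, fewer cells of a type and less RNA per cell cannot be told apart, and the part that this shift has in the values below was not tested.

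The CCN proteins are secreted matricellular proteins built from shared modules that bind integrins, growth factors and matrix, and CCN5 differs from the others in lacking the C-terminal module. Ccn1 and Ccn2 are widely used readouts of YAP, a coactivator that the Hippo kinases keep out of the nucleus and that has no DNA-binding domain of its own. In the nucleus YAP and its paralog TAZ act through the TEAD factors, which bind DNA at the letters GGAATG. In cartilage CCN2 is known as a growth factor of chondrocytes.

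Promoter sequences are shown because they carry the letters that TEAD factors bind. Of the 10 genes, 5 had a promoter in the RefSeq table used (GRCm38.p6): Ccn1 (chr3:145649986-145650235, minus strand), Ankrd1 (chr19:36119845-36120094, minus strand), Amotl2 (chr9:102717554-102717803, plus strand), Yap1 (chr9:8004597-8004846, minus strand) and Tead2 (chr7:45215542-45215791, plus strand). Ccn2, Ccn3, Ccn4, Ccn5 and Tead1 were not matched. Each line gives the 250 bases before the gene's start, 5′ to 3′ on the gene's strand, with GGAATG or its reverse complement CATTCC in capitals.
Ccn1: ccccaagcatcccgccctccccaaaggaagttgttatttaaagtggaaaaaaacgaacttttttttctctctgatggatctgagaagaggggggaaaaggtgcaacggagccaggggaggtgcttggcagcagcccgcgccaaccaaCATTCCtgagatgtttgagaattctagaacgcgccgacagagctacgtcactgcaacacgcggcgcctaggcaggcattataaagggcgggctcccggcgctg
Ankrd1: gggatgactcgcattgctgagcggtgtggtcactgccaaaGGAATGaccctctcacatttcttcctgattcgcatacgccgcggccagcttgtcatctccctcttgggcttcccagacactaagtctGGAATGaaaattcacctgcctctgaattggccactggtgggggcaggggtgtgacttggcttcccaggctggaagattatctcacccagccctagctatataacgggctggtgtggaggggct
Amotl2: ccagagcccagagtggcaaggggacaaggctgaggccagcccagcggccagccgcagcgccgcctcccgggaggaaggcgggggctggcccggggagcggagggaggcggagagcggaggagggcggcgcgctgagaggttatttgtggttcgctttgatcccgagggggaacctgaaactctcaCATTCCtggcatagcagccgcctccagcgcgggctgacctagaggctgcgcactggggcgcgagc
Yap1: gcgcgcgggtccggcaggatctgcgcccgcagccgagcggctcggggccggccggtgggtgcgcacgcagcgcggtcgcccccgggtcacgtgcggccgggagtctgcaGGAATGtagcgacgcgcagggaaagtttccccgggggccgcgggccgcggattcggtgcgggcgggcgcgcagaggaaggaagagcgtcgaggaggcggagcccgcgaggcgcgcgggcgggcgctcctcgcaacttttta
Tead2: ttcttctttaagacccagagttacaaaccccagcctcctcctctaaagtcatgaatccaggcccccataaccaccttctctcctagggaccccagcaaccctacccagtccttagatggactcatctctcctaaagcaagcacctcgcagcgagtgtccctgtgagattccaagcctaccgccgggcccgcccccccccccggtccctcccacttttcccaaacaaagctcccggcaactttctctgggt
The letters stood in 4 of these 5 windows, against 12.6% of the 32851 RefSeq promoter windows of the same length, searched on both strands. Ccn1, Ankrd1 and Amotl2 are among the 10 genes as known YAP-TEAD targets. A high share can therefore come from the choice of genes alone. Ankrd1 held them at 2 places and Ccn1, Amotl2 and Yap1 at 1 each. The match began 103 bases before the start in Ccn1, 65 bases before it in Amotl2, 141 in Yap1, and 210 and 123 in Ankrd1. The Tead2 window held none. A CArG box, the site of serum response factor, was in 0 of the 5 and in 1.47% of all windows. A match is a description of the letters only, and the absence of one covers only this window.

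Of the 10 genes, Tead2 and Ccn5 had signals 2-fold or more above control on the retinoic acid array (20.0%, against 6.54% of all 11884 measured genes), and 0 had signals 2-fold or more below it (against 4.34%). The other 8 were within 1.5-fold on their brightest probe set. They include Ccn1, Ccn2, Ankrd1 and Amotl2, the targets most used as YAP readouts. Of the 4 Ccn1 probe sets 2 were past 1.5-fold, at 1.55-fold and 1.70-fold. Ankrd1 lay near the floor (50.1 with retinoic acid and 45.3 in control), so no change in it could be read. At 1.5-fold the counts were also 2 higher and 0 lower, against 14.3% and 11.4% of all measured genes. By the brightest probe set the ratio was above 1 for 8 of the 10 and the median log2 ratio was 0.41. Over all measured genes 51.6% had a ratio above 1 and the median was 0.017. The 8 include Ankrd1, Yap1 and Tead1, whose other probe sets were on the other side of 0 (log2 ratios −0.51, −0.04 and −0.44). All 18 probe sets were above the floor on both arrays. Among them 12 were higher with retinoic acid and 6 lower.

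**Figure D1:**
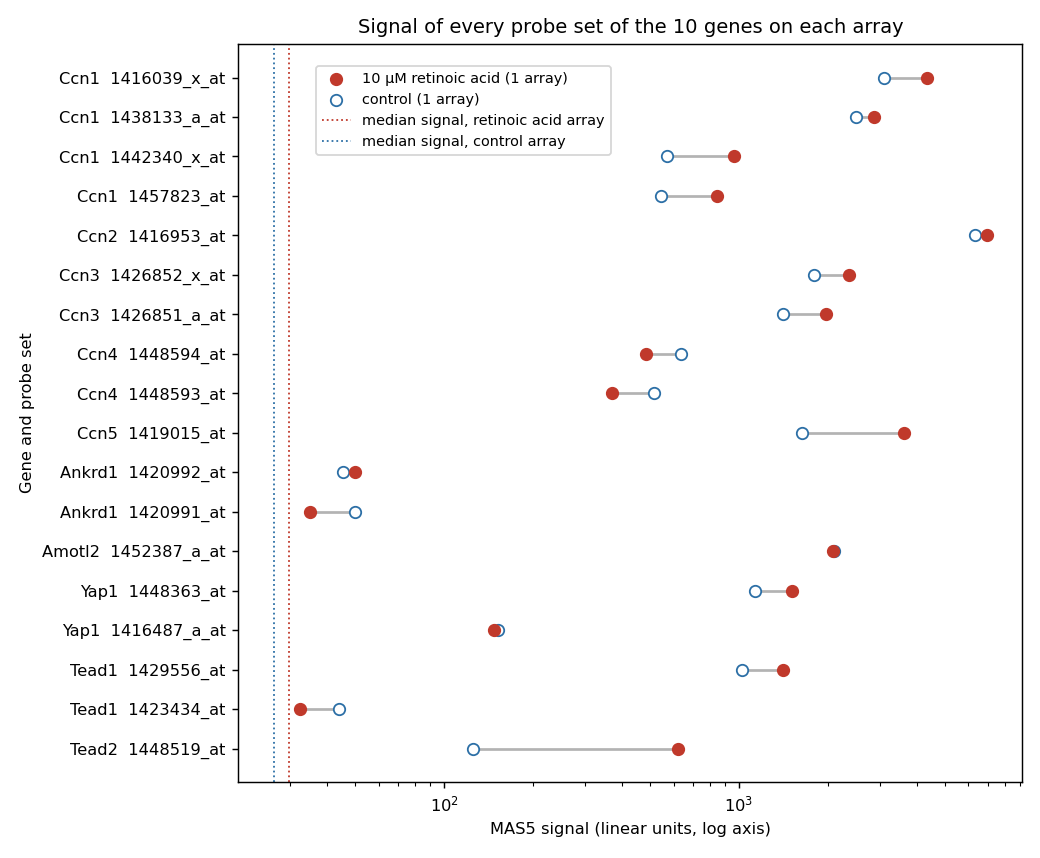
Signal of all 18 probe sets of the 10 genes on the retinoic acid array (filled red) and the control array (open blue), on a log axis, with each array's median as a dotted line; each point is 1 array, so there are no error bars. Tead2 (622 against 126) and Ccn5 (3622 against 1634) have the widest gaps, while the Amotl2 points (2086 and 2093) lie on top of each other and both Ankrd1 probe sets sit close to the medians.

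Among the factors that bind DNA, Tead2 had a signal of 622 with retinoic acid and 126 in control. TEAD2 is a TEAD family member known from early embryonic and neural tissue. This was a 4.94-fold higher signal (log2 ratio 2.30), and 130 of the 11884 measured genes (1.09%) had a higher ratio. Tead2 has 1 probe set, so no other measurement on the arrays repeats this value.

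Tead1, which encodes a broadly expressed TEAD factor, was 1407 with retinoic acid and 1022 in control on its bright probe set, a log2 ratio of 0.46. Its other probe set was near the floor, at 32.4 with retinoic acid and 44.0 in control (log2 ratio −0.44). The probe sets of Tead1 therefore differ in direction, and no direction is given for the gene. The remaining paralogs were named after their values were seen. Tead3 was 118 with retinoic acid and 108 in control. Tead4 was at 17.2, below the floor, with retinoic acid, and at 37.8 in control, which gives a bound of at least 1.27-fold lower; the true size is not known, and with a floor at the 30th percentile or none Tead4 was past 2-fold.

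The coactivator gene Yap1 had a signal of 1518 with retinoic acid and 1132 in control on its bright probe set, a log2 ratio of 0.42. The dimmer Yap1 probe set read 148 with retinoic acid and 152 in control (log2 ratio −0.04). The bright value is a little above the 0.30 probe set SD, and 2426 of the 11884 measured genes (20.4%) had a higher ratio. The dim value is smaller than that SD and on the other side of 0. The TAZ gene Wwtr1, also named after its values were seen, was 1752 with retinoic acid and 1763 in control. Its dimmer probe sets read 400 against 484 and 384 against 371.

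Ccn5 was the CCN gene with the largest difference. Its probe set had a signal of 3622 with retinoic acid and 1634 in control, 2.22-fold higher (log2 ratio 1.15), and 620 measured genes (5.22%) had a higher ratio. In smooth muscle cells CCN5 is known to restrain growth. There is 1 probe set for Ccn5, so this value too is unrepeated on the arrays.

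Ccn1 was higher with retinoic acid on all 4 of its probe sets. The brightest read 4341 with retinoic acid and 3109 in control, a log2 ratio of 0.48. A probe set at 2868 with retinoic acid and 2485 in control gave 0.21. The dimmer pair gave larger ratios, 0.76 (965 against 569) and 0.63 (844 against 544), and was designed on the same sequence record, so these values are not independent of each other. The size of the Ccn1 difference thus ran between 1.15-fold and 1.70-fold with the probe set read. An _x_ in the name of the brightest and of 1 dim probe set marks probes that may also bind other transcripts.

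Ccn2 had a signal of 6923 with retinoic acid and 6322 in control. The log2 ratio of 0.13 is inside the scatter between probe sets, and 4728 measured genes had a higher one. Ccn2 has 1 probe set, and it is the brightest of the 18 in signal; whether the ratio is compressed at this brightness was not tested.

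Ccn3 was higher on both of its probe sets. These read 2358 with retinoic acid and 1797 in control (log2 ratio 0.39) and 1966 with retinoic acid and 1409 in control (0.48). CCN3 is known to oppose CCN2 in cartilage cells in culture. Both probe sets were designed on the same record, and the brighter one has the _x_ in its name described for Ccn1. With quantile normalization the log2 ratio of the brighter one was 0.30, about the size of the probe set SD.

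Ccn4 was the CCN gene with a lower signal after retinoic acid. CCN4 is known as a product induced by Wnt signalling in bone and cartilage. Its probe sets read 484 with retinoic acid and 637 in control (log2 ratio −0.40) and 372 with retinoic acid and 516 in control (−0.47). The lower direction is thus the same on both, at 1.32-fold and 1.39-fold, past the probe set SD and short of 1.5-fold. By the brighter probe set, 2254 measured genes (19.0%) had a lower ratio. The sixth family member, Ccn6, had a signal below the floor on both arrays and was not measured.

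**Figure D2:**
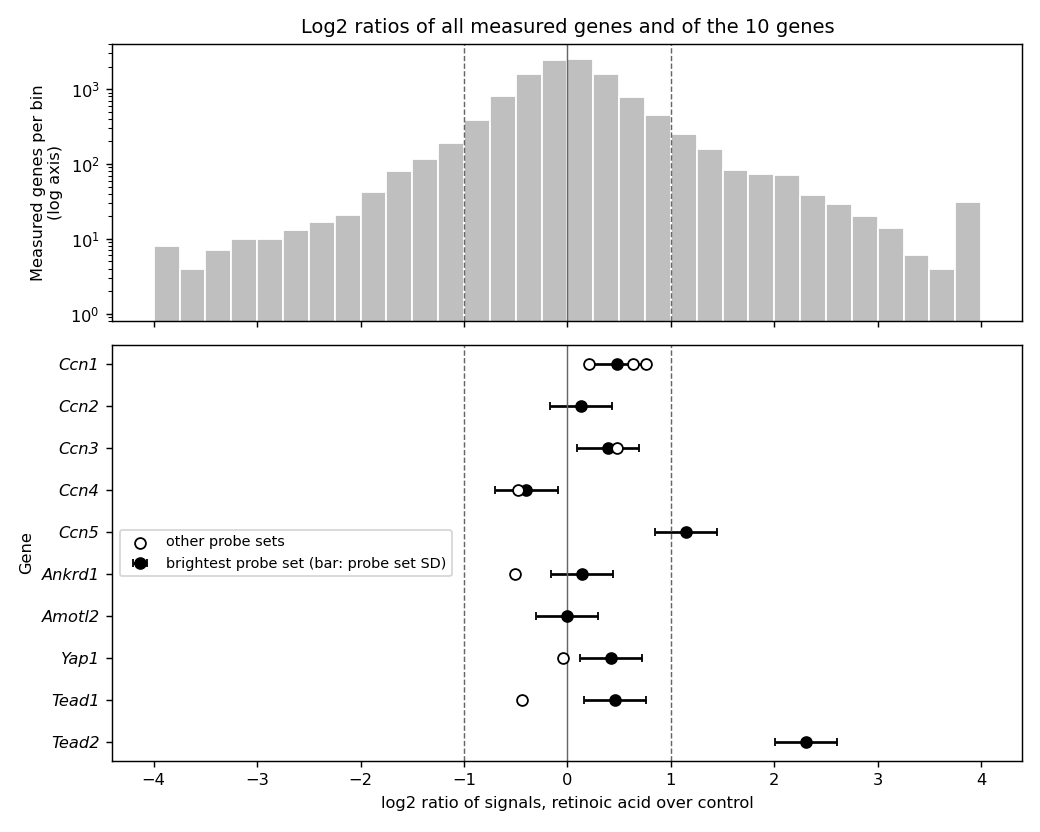
Upper panel, number of measured genes (log axis) by log2 ratio of retinoic acid over control in bins of 0.25, with ratios beyond 4 in either direction counted in the end bins. Lower panel, the log2 ratio of each of the 10 genes for its brightest probe set (filled, with a bar of the 0.30 probe set SD) and its other probe sets (open); dashed lines mark 2-fold. Tead2 at 2.30 and Ccn5 at 1.15 are past the 2-fold line, and the open points of Ankrd1, Yap1 and Tead1 lie on the other side of 0 from the filled ones.

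Of the target genes outside the CCN family among the 10, Amotl2 encodes a motin, a junctional protein that binds YAP, and is itself induced by YAP. Its signal was 2086 with retinoic acid and 2093 in control, a log2 ratio of −0.0050, close to the centre of all measured genes.

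Ankrd1 encodes an ankyrin repeat protein known from heart and stretched muscle. Its probe sets read 50.1 with retinoic acid and 45.3 in control (log2 ratio 0.14) and 35.2 with retinoic acid and 50.1 in control (−0.51). Both lie less than 2-fold above the floor and they differ in direction, so no change in Ankrd1 could be read. Of the 8 heart and skeletal muscle markers listed, 5 were below the floor on both arrays. The summed signal of that list was 209 with retinoic acid and 264 in control.

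The genes that surround YAP and TEAD were read from a list of 31 Hippo pathway genes, of which 28 were measured, Vgll1 and Ccn6 were below the floor on both arrays, and Stk3 had no probe set naming it alone. Here 4 genes (14.3%, against 6.54% of all measured genes) passed 2-fold in the higher direction with retinoic acid and 0 in the lower (against 4.34%). The log2 ratios had a median of 0.21, against 0.017 over all measured genes. This list and the target lists below were written with earlier results of these data known. A share above that of all measured genes can therefore come from the choice of genes. The 4 genes were Dchs1 and Map4k4 among the upstream inputs and Amot and Amotl1 among the YAP-binding proteins; with 6 measured genes in each of the kinase core and the TEAD group, no difference between roles can be read from these counts, and Wwc1, Tead4 and Vgll2 have bounds only. The medians were 0.56 for the upstream inputs (10 genes), 0.28 for the YAP-binding and LIM regulators (6 genes), −0.077 for the kinase core and −0.022 for the TEAD group.

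Among the upstream inputs, Dchs1, which encodes the large cadherin that is the ligand of Fat4, was 268 with retinoic acid and 90.3 in control (2.96-fold higher, 1 probe set). Map4k4, which encodes a kinase that can phosphorylate LATS, was 867 with retinoic acid and 427 in control (2.03-fold higher), and the 4 of its probe sets that passed the floor on each array gave log2 ratios between 0.97 and 1.71. Frmd6, which encodes a FERM domain protein upstream of the kinases, was 1441 against 820.1 (1.76-fold higher). Nf2, which encodes merlin, was 474 against 296 (1.60-fold higher), with its 4 probe sets between 0.078 and 0.68 on the log2 scale. Wwc1, which encodes KIBRA, was at 23.7, below the floor, with retinoic acid, and at 45.5 in control, at least 1.53-fold lower.

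The motin genes differed from each other in ratio. Amotl1 was 2149 with retinoic acid and 910.2 in control, 2.36-fold higher, and its 3 probe sets gave log2 ratios between 1.24 and 1.59. Amot, which falls outside the naming rule because its probe sets differ in sign and was chosen after its values were seen, was 1052 with retinoic acid and 358 in control on its brightest probe set (log2 ratio 1.55). The other Amot probe sets read 99.6 against 52.6 (0.92) and 58.3 against 68.3 (−0.23). Amotl2, the motin that is also a YAP target, stood at −0.0050. The difference between these genes was not tested, since each has 1 array per group. The 0.30 SD between probe sets is for ratios within 1 gene and holds no variation between cultures, so it does not measure a difference between genes.

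**Figure D3:**
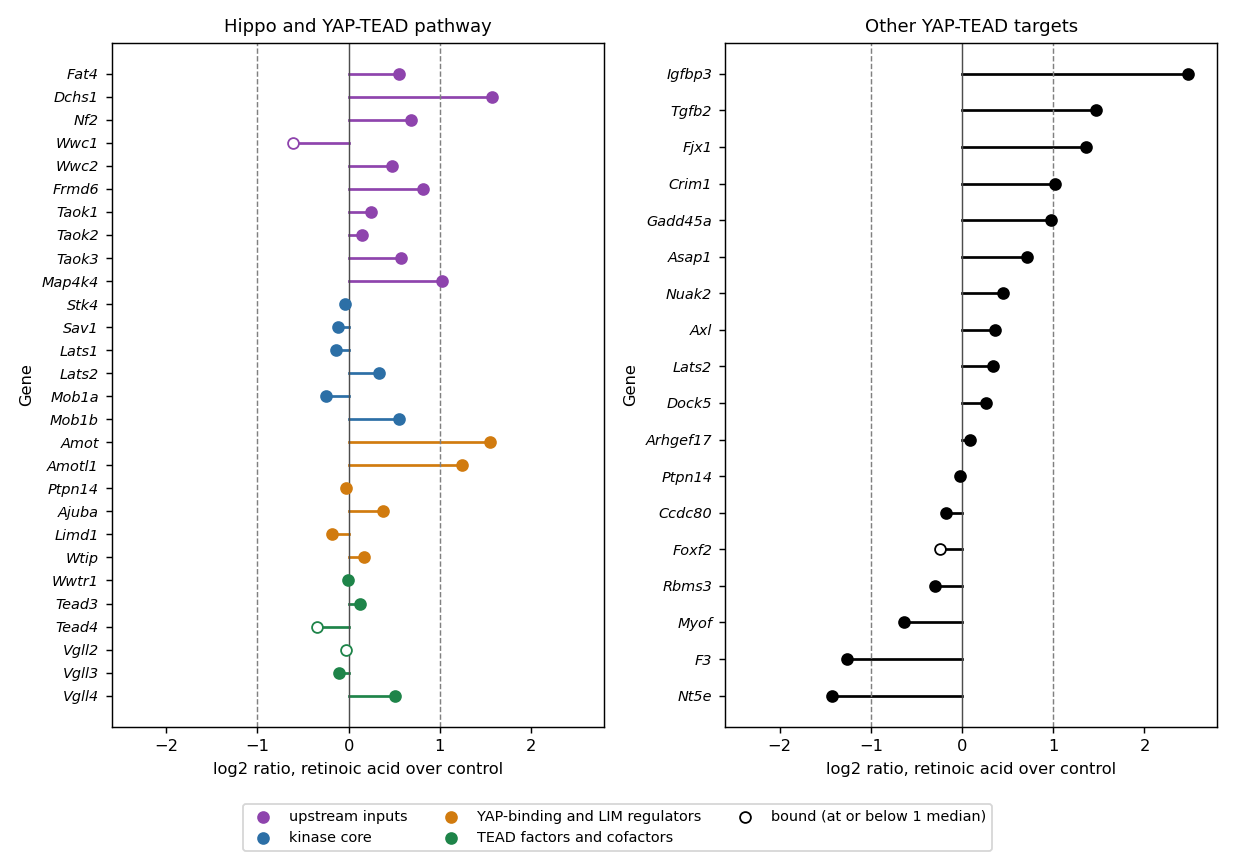
Log2 ratio of retinoic acid over control for the 28 measured genes of the Hippo pathway list, coloured by role (left), and for the 18 other YAP-TEAD targets in order of ratio (right); each point is the gene's brightest probe set on 1 array per group, open points are bounds and dashed lines mark 2-fold. On the left the points past 2-fold are Dchs1, Map4k4, Amot and Amotl1; on the right Igfbp3, Tgfb2, Fjx1 and Crim1 are past it on the higher side and F3 and Nt5e on the lower.

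Beyond the 10 genes, 18 further genes of a YAP-TEAD target list were measured, and they went both ways. With retinoic acid 4 of them passed 2-fold in the higher direction (22.2%, against 6.54% of all measured genes) and 2 in the lower (11.1%, against 4.34%), and their log2 ratios had a median of 0.30. The list shares Lats2 and Ptpn14 with the pathway list and, like it, was written with earlier results of these data known. Igfbp3, which encodes a carrier of insulin-like growth factors, was 6650 with retinoic acid and 1198 in control (5.55-fold higher), and its other probe set gave a log2 ratio of 2.37. Tgfb2, a TGF-β ligand gene, was 3127 against 1129 (2.77-fold higher), with 4 probe sets between 1.36 and 1.64.

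Fjx1, the mouse relative of a fly Golgi kinase that regulates Fat and Dachsous, was 80.2 with retinoic acid and 31.4 in control (2.56-fold higher). Its control signal is just above the floor. Crim1, a transmembrane BMP-binding protein gene, was 824 against 407 (2.03-fold higher), with 1.84 on the log2 scale for its other probe set.

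The genes at least 2-fold lower were Nt5e and F3. Nt5e, which encodes the ectonucleotidase CD73, was 431 with retinoic acid and 1155 in control, 2.68-fold lower, and its other probe set above the floor gave a log2 ratio of −1.43. F3, the tissue factor gene, was 105 with retinoic acid and 253 in control, 2.40-fold lower, on 1 probe set. Ccn1, Ccn2, Ankrd1 and Amotl2 belong to the same set of textbook targets. Their brightest probe sets had log2 ratios of 0.48, 0.13, 0.14 and −0.0050, that of Ankrd1 near the floor.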

How the data were processed

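Total RNA of 2 cultures, 1 with and 1 without 10 μM retinoic acid, was labelled with biotin from 100 ng and hybridised to 1 array each, per the labels' protocols. The authors deposited an intensity per probe set, on a linear scale, made with MAS5 per the submitters' processing notes. The sources used here do not give its version, its scaling target or detection calls. The values were used with no further scaling.

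Probe sets with 1 gene symbol in the platform annotation (34945 of 45101) were kept; 932 with several symbols, 9160 with none and 64 controls were left out. Signals at or below an array's median were raised to it. A gene above it on both arrays has a ratio, on 1 array a bound ("at least"), and on none no value; 11884 of 18193 genes were measured. No test was run, because each group has 1 array, and no genes of like pattern are named, because 2 arrays give each gene 1 ratio; ranks among all measured genes are given in their place. The 10 genes and the lists were chosen with earlier results of these data known. The naming rule took all 10 genes and, of each list, up to 6 measured genes with the largest absolute log2 ratio whose probe sets did not differ in sign. Alternatives were other floors, an offset, 3 scalings, 2 other ways to choose probe sets and a 1.5-fold count. Counting was checked on simulated data. The software was numpy 2.4.6, pandas 2.3.3, statsmodels 0.14.6 and matplotlib 3.10.9 under Python 3.11.15. Promoter sequences are from RefSeq (GRCm38.p6).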

Additional observations from a re-analysis of the deposited data

How the results depend on the processing

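No paired analysis was possible because each group has 1 array, so no replicate could be left out either. Tead2 and Ccn5 stayed at least 2-fold higher, and 0 of the 10 genes were at least 2-fold lower, under all 10 processing alternatives; at 1.5-fold the counts were also 2 and 0. The log2 ratio ran from 2.10 to 2.30 for Tead2 and from 1.05 to 1.15 for Ccn5. The median over probe sets moved Ankrd1 to −0.18 and Tead1 to 0.0096, and with unique probe sets only Ccn1 passed 1.5-fold, at 0.63. Ankrd1 fell below the 70th percentile floor and has no value there. All probe sets of Ccn3 and Amotl2 have _a_ or _x_ in the name. The setting called unique probe sets only left out every name with such a letter, without a check of whether the probe set reads other genes. Ccn3 and Amotl2 therefore have no value in it. In the Hippo list, 1 gene, Tead4, was at least 2-fold lower with a floor at the 30th percentile or with no floor. Of all measured genes, 5.5% and 11.6% were. At 1.5-fold 6 of the 28 measured Hippo genes were higher (against 14.3%) and 1, Wwc1, was lower (against 11.4%). Among the other YAP-TEAD targets, 2 were at least 2-fold higher with the offset, and 1 was at least 2-fold lower with a floor at the 70th percentile. Among SRF-MRTF targets, 16 had a value with unique probe sets only, and 2 of these were at least 2-fold higher (against 6.63% of all measured genes). Actg2 and Fhl2, each with 1 probe set and an _a_ in its name, had no value there. At 1.5-fold 7 of the 19 SRF-MRTF targets were higher (against 14.3%) and 1 lower (against 11.4%). Under each of the 3 scalings, 3 genes rather than 4 were at least 2-fold higher in each of the 3 lists. Over all measured genes the share was then 5.69% to 6.11%. In the Hippo list the count was also 3 with the offset, the median over probe sets and unique probe sets only. The share over all measured genes was then 5.55% to 6.63%. With the median over probe sets the gene no longer past 2-fold was Amot, with a log2 ratio of 0.92. Map4k4 and Crim1 (each 2.03-fold) and Fhl2 (2.05-fold) lie close to the threshold. Over all genes, 2137 were at least 2-fold higher and 2106 lower with no floor, against 777 and 516. The offset, which pulls low signals together, gave 659 higher and 355 lower. Signals near the floor carry little information.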

Other observations

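Ccn1, Ccn2 and Ankrd1 are also known targets of serum response factor and its MRTF coactivators, which respond to actin. All 19 genes of a list of that system were measured. With retinoic acid 4 (21.1%) passed 2-fold in the higher direction, against 6.54% of all measured genes. In the lower direction 0 passed it, against 4.34%, and the log2 ratios had a median of 0.31. This list too was written with earlier results of these data known. Tpm1, a tropomyosin gene, was 6405 with retinoic acid and 2045 in control (3.13-fold higher), and its other probe set above the floor on both arrays gave a log2 ratio of 1.77. The myosin light chain gene Myl9 was 1522 against 512 (2.97-fold higher), the smooth muscle actin gene Actg2 150.04 against 59.1 (2.54-fold higher), and Fhl2, which encodes a LIM protein, 772 against 376 (2.05-fold higher). Tagln, the transgelin gene, was 1259 against 632 (1.99-fold higher), and Cnn2, a calponin gene, 4163 against 2237 (1.86-fold higher).

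Other cells of the joint were read through their markers, of which those given singly were chosen after their values were seen. Of 5 endothelial markers 4 were below the floor on both arrays, and their summed signal was 88.8 with retinoic acid and 75.7 in control. The leukocyte marker Ptprc was below the floor on both arrays. The other 4 leukocyte and macrophage markers were above it on both. With retinoic acid against control, Cd14 was 102 against 56.1 (1.81-fold higher), Csf1r 53.7 against 60.3, Cd68 43.2 against 34.9 and Adgre1 33.8 against 31.9. The 5 markers summed to 239 with retinoic acid and 189 in control. The 5 smooth muscle and pericyte markers summed to 4613 with retinoic acid and 3410.2 in control, most of it from Acta2 (4339.6 and 3165), while Rgs5 was 130.4 against 44.5 (2.93-fold higher), Cnn1 70.5 against 116 (1.65-fold lower), and Myh11, a marker of mature smooth muscle, was below the floor on both arrays. The 4 tendon markers summed to 1009.8 with retinoic acid and 1163 in control. Scx (log2 ratio −1.25, with a probe set of the other sign at 0.28) and Kera (at least 2.21-fold lower) passed 2-fold in the lower direction, as did 4.34% of all measured genes, Tnmd was at −0.28, and Mkx was 232 against 122 (1.90-fold higher). Of 4 osteoblast markers, Bglap had no probe set naming it alone, and the other 3 summed to 163 with retinoic acid and 212 in control, with Sp7 at 41.6 against 125 (3.01-fold lower), Ibsp at 81.0 against 71.3 (1.13-fold higher) and Dmp1 at least 1.54-fold higher. Of the 4 superficial zone markers, Clu had a log2 ratio of 2.58, while Prg4 (−0.74), Tnc (−0.55) and Erg (−0.46) were on the other side of 0. The part of these cells in the values of the 10 genes was not tested.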
